A study of Mus musculus with 9 samples.

Results

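Blood of athymic BALB/c mice was compared with blood of a C57Bl/6 mouse within each of the 3 arrays that carried blood of day 0, 3 of the 9 arrays of the series. These are the arrays of mice 832, 833 and 834, chosen by their labelled time point and tissue. On each array the RNA labelled with Cy5 came from 1 untreated female athymic BALB/c mouse, bled before any inoculation, and the RNA labelled with Cy3 came from blood of a female C57Bl/6 mouse that had received no treatment. The other arrays carry blood of day 10 after Hepa1-6 hepatoma cells were placed under the skin of the same mice, and an enriched fraction of inflammatory cells from the tumours (TIC), each against the same reference. The labels give no age, no substrain, no allele of the athymic mice and no blood count. The reference counts as 1 control sample. A test of the ratio against 0 therefore leaves out how much C57Bl/6 mice differ among themselves, and strain, thymus and individual reference mouse cannot be told apart.

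The common athymic (nude) mouse lacks a working Foxn1, the transcription factor that thymic epithelium needs to form, and so has few mature T cells, while B cells, natural killer (NK) cells and myeloid cells develop outside the thymus. BALB/c and C57BL/6 mice also differ by inheritance. They carry different haplotypes of the major histocompatibility complex (MHC), and C57BL/6 mice lack a functional promoter of the class II gene H2-Ea and lack the NKG2D ligand gene H60. In whole blood most RNA comes from reticulocytes, the youngest red cells, with platelets and white cells adding the rest.

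All values are log2 ratios of Cy5 over Cy3, so that positive means higher in athymic blood, with the standard error (SE) of the limma fit over 3 mice. The dyes were never swapped, and a probe that favours one dye would give a ratio away from 0 in all 3 mice with no difference in RNA. Cy5 was also the dimmer channel: 36.9%, 32.4% and 24.3% of spots were well above background in Cy5 on the arrays of mice 832, 833 and 834, against 50.4%, 46.5% and 45.6% in Cy3. Ratios were therefore normalised by loess, which removes the trend of the ratio with intensity. When each array was only centred on its median, the median of all genes tested was -0.58 in place of 0.02 and fell from -0.22 in the dimmest 1915 genes to -1.41 in the brightest 1915. A negative value under that centring is thus set below against the all-gene median of -0.58, although the median of genes of like intensity can lie above or below it. The scan date in the file headers puts the arrays of mice 832 and 833 in the same scan group and that of mouse 834 in a different group. All 1990 genes called below had the same sign in all 3 mice, and so in both scan groups. That is no separate check, because these same arrays chose the genes. The 3 arrays correlated at 0.81 to 0.84 across the 7660 genes tested (genes are not independent replicates).

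Markers of several cell types of blood, though not of all, were seen in athymic blood. Markers of red cells (Hbb-bt, Alas2), neutrophils (S100a8, S100a9, Csf3r), B cells (Cd79a, Ms4a1) and the NK genes Gzma and Klrd1 were well above background in Cy5 on all 3 arrays. So were the platelet gene Ppbp and the monocyte genes Csf1r and Ccr2, whereas Pf4 of platelets and Cx3cr1 of monocytes were so on 2. Of the eosinophil markers, Siglecf was bright in Cy5 on 3 arrays, Ccr3 on 2 and Epx on 0. The basophil markers Fcer1a and Mcpt8 were bright in Cy5 on 0 and 1 arrays. Of 3 T cell markers, Cd3e and Lat were bright in Cy5 on 3 arrays and Cd3g on 1, and all 3 were bright in the reference on 3 arrays. Rag1, which thymocytes use to rearrange their receptors, and the thymic epithelial genes Psmb11 and Aire were not well above background in either channel. The other thymocyte markers, Dntt and Ptcra, were each bright in the reference on 3 arrays and in athymic blood on 1. Foxn1 itself was not well above background in athymic blood and was so in the reference on 2 arrays, so blood gives no check of the athymic genotype. The keratin genes Krt5 and Krt14, markers of skin, were bright in both channels on all 3 arrays, at -1.15 ± 0.27 (limma adjusted p = 0.0299) and -1.11 ± 0.19 (adjusted p = 0.0107). The fibroblast genes Col1a1 and Col3a1 were bright in the reference on 3 arrays and in athymic blood on none, and Dcn on 3 and 1. Of the liver genes, Alb and Apoa1 were bright in neither, whereas Afp was bright in the reference on 3 arrays and in athymic blood on 2. The part of skin or fibroblast RNA in the differences described here was not tested.

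Of 7660 genes with both channels bright on all 3 arrays, 1029 were higher and 961 lower in athymic blood (limma one-sample test, Benjamini-Hochberg adjusted p under 0.05), 13.4% and 12.5% of the genes tested, 26.0% together. All 1990 had the same sign in all 3 mice, 298 of the higher ones and 346 of the lower ones by at least 2-fold. Of the called genes, 51.7% were higher. With median centring that share was 1.54%, with 72 genes higher and 4604 lower. All 961 lower genes were below the all-gene median of that centring, and 856 of the 1029 higher genes were above it, 419 of them above 0. Without mouse 832 the counts were 505 higher and 541 lower. Among 477 called genes with another bright probe, 93 had a probe of opposite sign.

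The 15 largest rises included the neutrophil genes S100a8, S100a9 and Retnlg and 5 stefin genes. Csta1, Cstdc6, Cstdc4, Stfa2 and Stfa2l1 belong to the stefin A family of cysteine protease inhibitors, a cluster of near-identical copies in the mouse, so the members cannot be separated with certainty. Csta1 had ratios of 4.45, 5.71 and 4.12 in mice 832, 833 and 834, a mean of 4.76 ± 0.30 (adjusted p = 0.000599). S100a9 was at 4.25, 4.61 and 4.98, a mean of 4.61 ± 0.16 or 24.5-fold (adjusted p = 0.000299), and S100a8, which forms calprotectin with it, at 3.46, 3.55 and 3.57, a mean of 3.53 ± 0.10 or 11.5-fold. Both S100 genes lay far above 0 in each mouse, and their lowest value was higher than any value of the other neutrophil genes. Retnlg, a resistin-like gene of neutrophils, was at 3.35, 3.16 and 2.71. Others of the 15 largest rises were Cebpd, a myeloid transcription factor (2.54 ± 0.17), Cd300lf, an inhibitory receptor of myeloid cells (2.84 ± 0.15), Gng11, a G protein subunit (3.12 ± 0.16), Npy, the neuropeptide Y gene (2.69 ± 0.30), and the interferon-inducible Ifi27l2a (2.57 ± 0.26). Plet1 and Asprv1 were the least even of the 15. Plet1 was at 3.69, 4.73 and 1.76, and Asprv1, a protease gene of epidermis, at 2.91, 4.02 and 0.72, so that mouse 834 was far below the other two.

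Red cell genes were among the largest falls. Tspo2, whose product resembles the mitochondrial translocator TSPO and is made in erythroid cells, was at -3.45, -3.86 and -3.63, a mean of -3.64 ± 0.12 (12.5-fold lower, adjusted p = 0.000299). Slc6a9, a glycine transporter gene, was as low at -3.67, -3.96 and -3.29. Epb42, which encodes the red cell membrane protein band 4.2, was at -3.42, -3.48 and -2.62. Cat, the catalase gene, was the least even of the 15, at -3.40, -4.39 and -2.47. Ube2b, a ubiquitin-conjugating enzyme gene, averaged -3.43 ± 0.19. The fatty acid receptor gene Cd36 (-2.93 ± 0.15), the sialic acid enzyme gene Cmas (-2.98 ± 0.13) and the autophagy protease gene Atg4a (-2.89 ± 0.16) were lower too, with Dhrs11, Serinc1, Yipf4 and Prxl2a between -3.26 and -3.02. In every one of these genes all 3 mice were below -2.

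**Figure D1:**
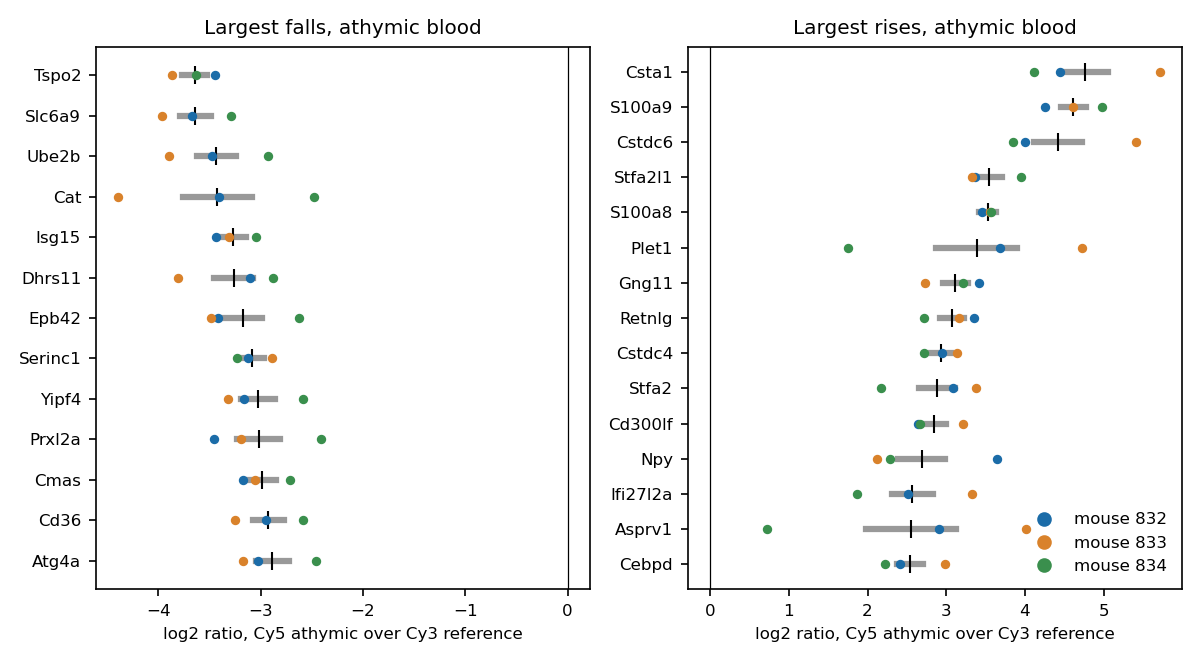
Log2 ratios of athymic over reference blood (x axis) for genes among the 15 largest falls (left) and for the 15 largest rises (right), 1 point per mouse, with the mean as a tick and its SE as a grey bar. All points of the falls lie below -2, and Asprv1 and Plet1 show the widest spread among the rises, with mouse 834 lowest in both.

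Part of the T cell genes fell in athymic blood or were not well above background there. The 5 T cell lists held 69 genes, 66 of them on the array. Of these, 25 were bright in both channels, 11 of which fell and 3 rose, and 19 were bright in the reference on all 3 arrays and in athymic blood on none. No T cell gene showed the opposite pattern. Over the 27554 genes with a ratio on all 3 arrays those counts were 1762 and 24. Most genes seen in one channel only were thus seen in the reference, and the T cell counts are given as a description. Of all genes tested, 12.5% were lower. The median ratio of the 25 was -0.29, with medians of -0.27, -0.47 and -0.27 in mice 832, 833 and 834, against 0.02 for all genes. In the scan group of mice 832 and 833 the median was -0.31, and in that of mouse 834 -0.27. Since a gene had to be bright in athymic blood to be tested, the genes lowest there are outside this median. In these bulk samples fewer T cells and less T cell RNA per cell cannot be told apart.

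Among genes of the T cell receptor complex and the surface, Thy1 fell most. This T cell surface glycoprotein gene was at -2.25, -2.47 and -1.504, a mean of -2.07 ± 0.20 (4.21-fold, adjusted p = 0.00148; probe at chr9:43799512-43799571, build mm8). Cd3d, which encodes the delta chain of CD3, was at -1.90, -1.95 and -1.55, a mean of -1.80 ± 0.13 (3.49-fold, adjusted p = 0.000706; probe at chr9:44737083-44737314). Its net Cy5 intensity, mean spot minus local background, was 48.0, 27.0 and 13.2, against 598, 575 and 565 in Cy3. Cd5, an inhibitory receptor of T cells and of some B cells, was at -1.40, -1.47 and -1.01, a mean of -1.29 ± 0.13. Cd3e, the epsilon chain, did not pass the test. It was at 0.09, -0.54 and 0.02, with a 95% interval of the mean from -0.52 to 0.24, and Cd2, which NK cells also carry, had an interval from -0.29 to 0.25. The probe of Cd3e was bright in athymic blood on all 3 arrays, whereas its second probe was not.

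Several defining T cell genes were not well above background in athymic blood. Cd8a, the alpha chain of the CD8 coreceptor, had net Cy5 intensities of 2.20, 3.14 and 1.83 against 122, 118 and 131 in Cy3, a level at least 1.91-fold higher in the reference. The antigen receptor alpha chain gene Tcra was at least 1.53-fold higher in the reference, with net intensities of 83.5, 82.0 and 80.5 there. Cd8b1, which encodes the CD8 beta chain, was bright in Cy5 on 1 array and in Cy3 on 3. Its ratios were not tested, with net Cy5 of 10.9, 6.35 and 3.40 against 1084, 1066 and 989 in Cy3 on that probe. Il7r, the receptor for interleukin 7, Tcf7, the transcription factor TCF1, and Dapl1, a gene of naive T cells, were at least 2.11-fold, 2.10-fold and 2.11-fold higher in the reference. Each limit sets the reference against the higher of the lowest Cy5 signal well above background and the probe's own Cy5 signal. For Cd8a, Tcra, Il7r, Tcf7 and Dapl1 the probe's own signal was the higher, so the fold equals its measured ratio after the offset of 50, against a channel that was not well above background.

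Of 11 T cell receptor signalling genes tested 4 fell, 2 rose and 5 were not called, against 12.5% lower and 13.4% higher of all genes. Skap1, an adaptor of T cell adhesion, was at -0.997 ± 0.15, Dgka, which ends diacylglycerol signals, at -0.72 ± 0.15, Lck, the kinase that starts receptor signalling, at -0.68 ± 0.14 and Lat, the adaptor downstream of it, at -0.47 ± 0.13, the last with adjusted p = 0.0419. The transcription factor gene Satb1 (-0.66 ± 0.13), the lymph node homing receptor Ccr7 (-0.67 ± 0.11), Ms4a4b (-0.93 ± 0.22) and Tnfrsf4, which encodes OX40 (-0.92 ± 0.19), fell as well. Ms4a4b was uneven, at -1.61, -0.62 and -0.56. Rises were measured for Cd226, an activating receptor found also on NK cells and platelets (1.07 ± 0.13, and -0.065 with median centring) and Lcp2, an adaptor of T cells, platelets and myeloid cells (0.64 ± 0.11). The 11 genes that did not pass included Prkcq (-0.34 ± 0.11) and Klf2 (0.25 ± 0.12, and -2.10 with median centring). Of the 10 genes of the thymus and thymocyte list none was bright in both channels on all 3 arrays. Without mouse 832, 6 T cell genes were called lower.

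**Figure D2:**
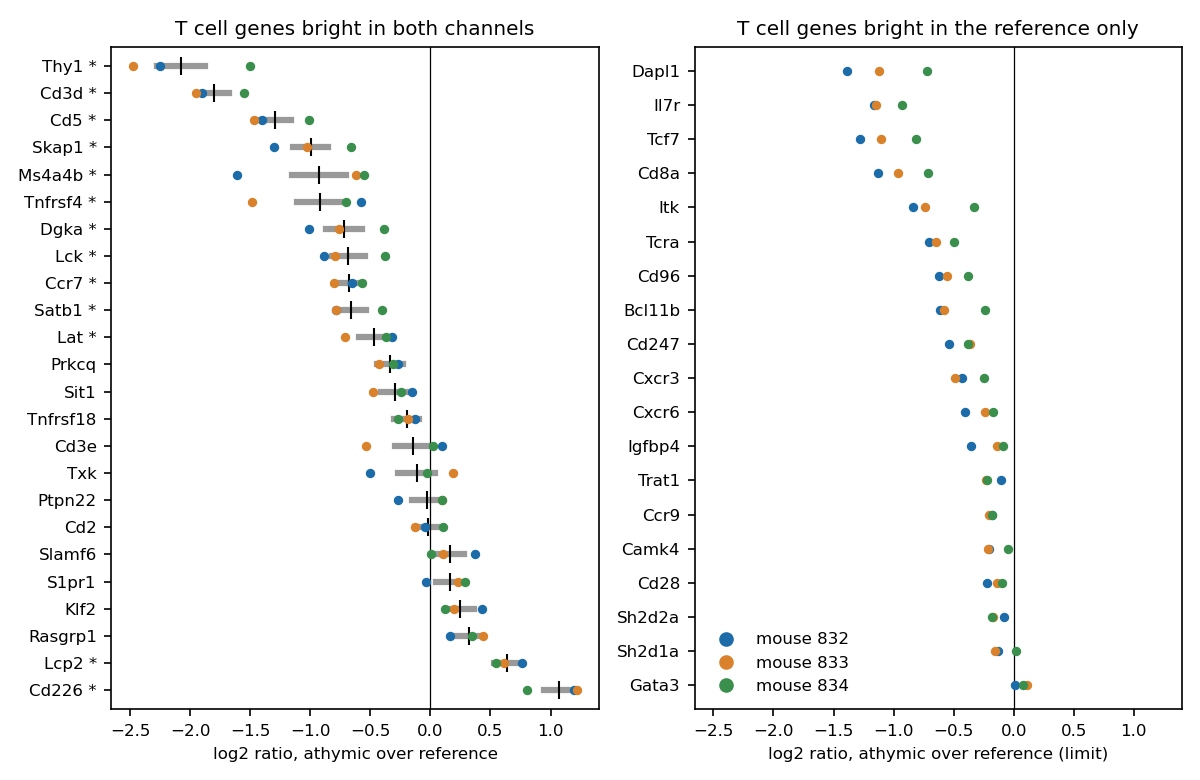
Log2 ratios of athymic over reference blood (x axis) for T cell genes bright in both channels (left, mean as a tick, SE as a grey bar, called genes with an asterisk) and the 19 bright in the reference on all 3 arrays only (right, no test), 1 point per mouse. Thy1, Cd3d and Cd5 lie below -1 in all 3 mice, and the genes on the right lie between -1.39 and 0.11.

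Some NK cell genes rose. Of 24 NK and cytotoxic genes on the array 12 were tested, with 4 higher, 1 lower, 7 not called and a median of 0.34, against 13.4% higher and 12.5% lower of all genes. Gzma, which encodes the protease granzyme A, was at 1.72, 2.57 and 2.02, a mean of 2.10 ± 0.18 (4.29-fold, adjusted p = 0.00105; probe at chr13:114216656-114216715, mm8). Ccl5, a chemokine of NK and memory T cells, was at 1.82 ± 0.23 and Klrd1, which encodes CD94, at 0.75 ± 0.18, against -0.011 and -0.16 with median centring. Tbx21, the transcription factor T-bet, was at 0.74 ± 0.14. Ctsw, a cathepsin gene of cytotoxic cells, was lower at -0.56 ± 0.13. Prf1, the perforin gene, was at 0.41 ± 0.15 and Gzmb at 0.37 ± 0.12, and neither passed, nor did Klrb1c, Klrc2, Nkg7, Il2rb and Klre1, at 0.04 to 0.31. Ncr1, the activating receptor NKp46, was bright in athymic blood on 3 arrays and in the reference on none, at least 1.74-fold higher. Klrk1, another gene of the list, showed the reverse, with a limit of 1.04-fold. Of 27554 genes with a ratio on all 3 arrays, 24 were bright in athymic blood only and 1762 in the reference only.

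B cell genes rose or were not called. Of 22 tested, 12 rose and none fell by the limma test, against 13.4% higher and 12.5% lower of all genes, with a median of 0.48 and medians of 0.65, 0.38 and 0.61 in the 3 mice. Ms4a1, which encodes CD20, was at 1.43, 1.85 and 2.24, a mean of 1.84 ± 0.17 (adjusted p = 0.00137). Vpreb3, a chaperone of the B cell receptor, was at 1.77 ± 0.14, Pou2af1, a B cell coactivator, at 1.63 ± 0.15. Ighm, the heavy chain of IgM, was at 2.12 ± 0.22, and at -0.33 with median centring. A second bright probe of Ighm was at 0.60. Cd79a, a signalling chain of the B cell receptor, did not pass, at -0.10 (95% interval -0.44 to 0.24). Under median centring the median of the 22 genes was -0.51, and that of all genes -0.58.

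Many myeloid genes rose. Of 16 neutrophil genes tested 11 rose and none fell (median 1.26), and of 13 monocyte and macrophage genes 6 rose and none fell (median 0.53), against 13.4% of all genes that rose. Beside the S100 genes, Chil3, a chitinase-like lectin, was at 1.88, 1.82 and 1.997, a mean of 1.90 ± 0.11. Camp and Ngp, granule protein genes of young neutrophils, were bright in athymic blood on 3 arrays and in the reference on none. They were 2.06-fold and 2.04-fold higher by the mean measured ratio over 3 arrays. In mouse 834 their ratios were 0.42 and 0.58, with net Cy5 of 13.6 and 18.1 against 19.7 and 18.5 in Cy3. Ccr2, the receptor that marks inflammatory monocytes, was at 1.03 ± 0.11 and Adgre1, which encodes F4/80, at 0.58 ± 0.14. Lyz2, the lysozyme gene, was at 2.23 ± 0.22 and the Fc receptor gene Fcgr3 at 0.92 ± 0.11, against -0.39 and -0.037 with median centring. Of the 11 genes of the eosinophil and basophil list only 2 were tested. Hdc (1.24 ± 0.19) and Gata2 (0.62 ± 0.16) both rose, against 13.4% of all genes. Another 7 were bright on some arrays, and Epx was not well above background in either channel. Siglecf, a surface lectin of eosinophils, was bright in athymic blood only, with a limit of 1.30-fold.

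**Figure D3:**
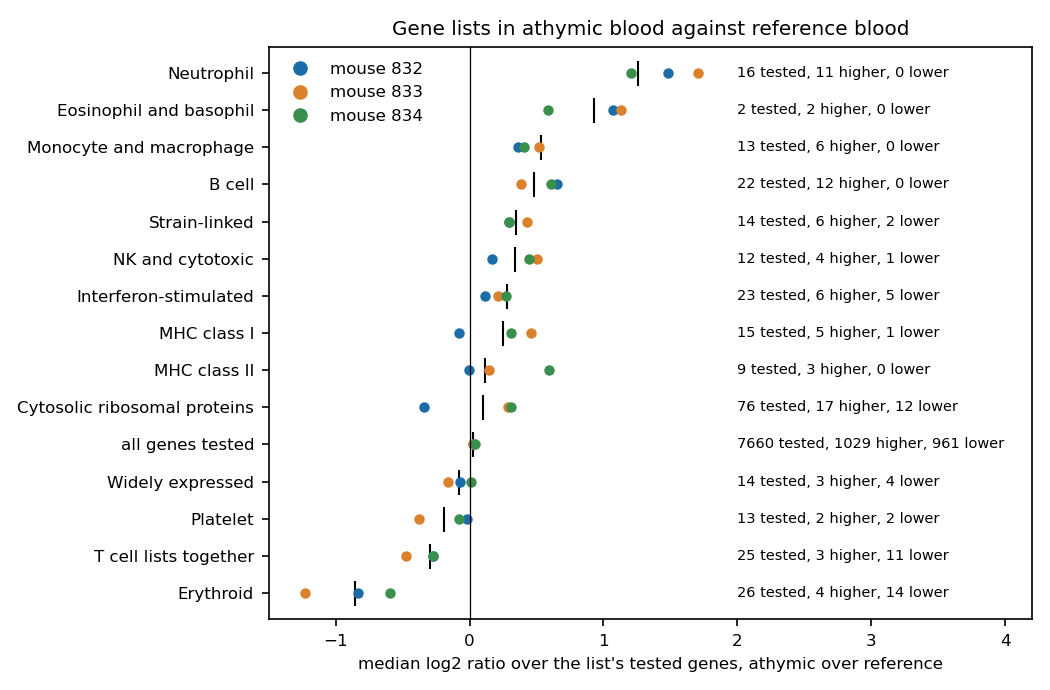
Median log2 ratio of athymic over reference blood (x axis) over the tested genes of each list, 1 point per mouse, with a tick for the median of the gene means and the counts of called genes at the right. The neutrophil list is highest at 1.26 and the erythroid list lowest at -0.86, and all genes tested sit at 0.02.

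Red cell genes moved in both directions. Of 26 erythroid genes tested 14 fell, 4 rose and 8 were not called, with a median of -0.86, against 12.5% lower and 13.4% higher of all genes. The falls included Trim10, an erythroid RING finger gene, at -2.77, -3.23 and -2.53 (mean -2.84 ± 0.16), Ank1, the ankyrin of the red cell skeleton (-2.73 ± 0.23), Car2, a carbonic anhydrase (-2.45 ± 0.19), and Slc4a1, the band 3 anion exchanger (-1.53 ± 0.18). The rises were the globin genes Hbb-bt (1.62 ± 0.16), Hbb-y (1.33 ± 0.13) and Hba-a1 (0.98 ± 0.20) and the haem enzyme gene Fech (0.72 ± 0.15), which with median centring were at -2.13, -1.30, -2.60 and -1.91, below the all-gene median of -0.58. A second bright probe of Fech was at -2.06. On the Hbb-bt probe net Cy5 was 213098, 88830 and 36701 and net Cy3 402769, 520097 and 408979. Beta globin genes are near-identical copies, and the 2 strains carry different haplotypes of them, so that gene is reported as uncertain. Epb42 and Ank1 were at -4.37 and -4.15 with median centring, below 0 and below the all-gene median there too. The median of the list was -0.99 in the scan group of mice 832 and 833 and -0.59 in that of mouse 834.

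The promoters of Epb42 and Trim10 are printed as RefSeq gives them for build GRCm38.p6, because both genes fell and both windows hold the GATA motif AGATAA, the letters that GATA1, the main erythroid transcription factor, recognises. Each runs 5′ to 3′ on the strand of its gene from 250 bases before to 50 after the start, at chr2:121036828-121037127 (minus strand) for Epb42 and chr17:36869324-36869623 (plus strand) for Trim10. Capitals mark the motif, here on the opposite strand.
Epb42: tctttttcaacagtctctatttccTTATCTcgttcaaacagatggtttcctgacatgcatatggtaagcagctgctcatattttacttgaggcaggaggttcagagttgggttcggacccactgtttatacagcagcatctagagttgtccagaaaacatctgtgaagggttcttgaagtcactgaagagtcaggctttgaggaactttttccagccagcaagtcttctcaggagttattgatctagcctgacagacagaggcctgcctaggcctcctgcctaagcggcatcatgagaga
Trim10: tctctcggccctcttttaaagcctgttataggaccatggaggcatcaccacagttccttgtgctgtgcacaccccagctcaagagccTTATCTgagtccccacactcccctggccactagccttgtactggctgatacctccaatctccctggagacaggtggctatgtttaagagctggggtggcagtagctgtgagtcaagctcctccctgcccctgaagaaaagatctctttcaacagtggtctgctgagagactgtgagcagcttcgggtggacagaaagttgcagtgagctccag
On either strand AGATAA was in 11.2% of all 32851 windows, in those of 12.7% of all genes and in those of 6 of 20 erythroid genes. Of the lower genes 5 of 9 held it, of the higher ones 0 of 3 and of those not called 1 of 4. The window of Tspo2, the erythroid gene that fell most, held no match. A match describes these letters and is no evidence of binding.

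**Figure D4:**
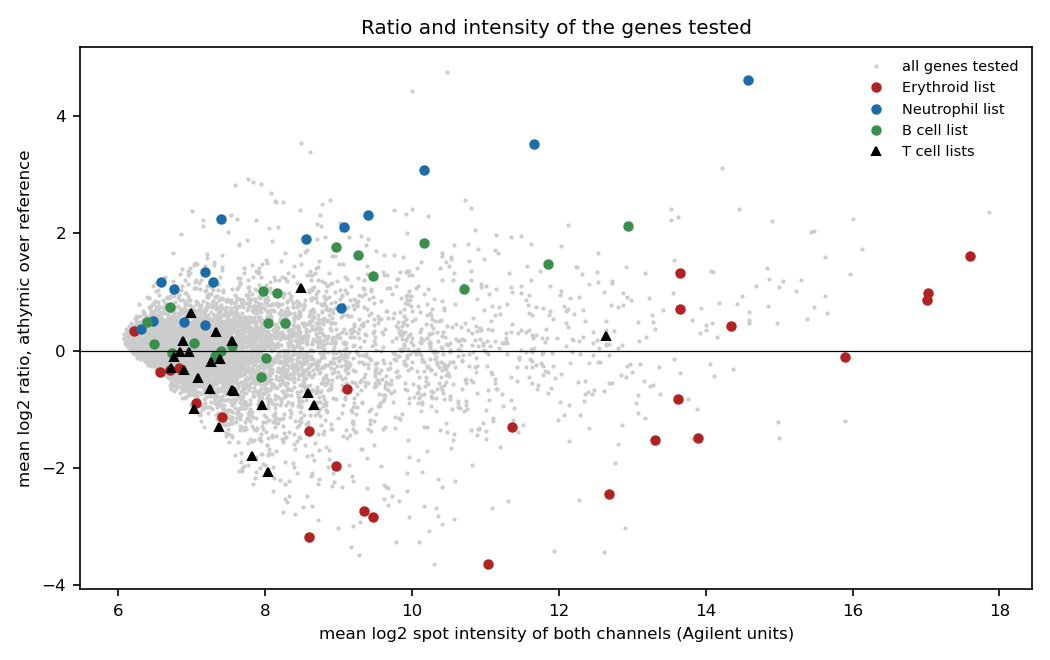
Mean log2 ratio of athymic over reference blood (y axis) against the mean log2 spot intensity of both channels (x axis) for the 7660 genes tested (grey), with the erythroid, neutrophil, B cell and T cell genes marked. Hbb-bt and Hba-a1 are among the brightest genes and above 0, Tspo2 is the lowest erythroid gene at -3.64, and S100a9 is highest among the marked genes at 4.61.

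Genes known to differ between the strains were measured next. Of 43 listed, 33 were on the array and 14 were tested. Of these, 6 were higher and 2 lower, against 13.4% higher and 12.5% lower of all genes. The 6 include Hbb-bt, reported above as uncertain. A further 3 were bright in athymic blood only and 3 in the reference only, against 24 and 1762 of the 27554 genes with a ratio on all 3 arrays. Without mouse 832, 4 of the 14 were called in place of 8. Ifi202b, an interferon-inducible gene that C57BL/6 mice express weakly, was at 2.06, 2.90 and 0.996, a mean of 1.99 ± 0.34 (3.96-fold, adjusted p = 0.00958; probe at chr1:175799497-175800526, mm8). Its Cy5 net intensities were 155, 263 and 38.4 and its Cy3 intensities 26.8, 27.5 and 31.0, so mouse 834 was close to the reference before normalisation. Ly6a, which encodes Sca-1 and is expressed by more lymphocytes in C57BL/6 than in BALB/c, was at -2.02, -0.98 and -1.35, a mean of -1.45 ± 0.21 (adjusted p = 0.00525). Nnt, a mitochondrial transhydrogenase gene that carries a deletion in the C57BL/6J substrain, was at 0.72 ± 0.12. It was well above background in the reference on 3 arrays, and its other 3 probes averaged -0.06 to 0.10. Cd244a (0.89 ± 0.13) and Slamf1 (0.85 ± 0.16), receptors of the polymorphic SLAM cluster, rose, while Cd84, Cd48 and Ly9 of the same cluster did not pass. Ly6c1 was higher at 0.84 ± 0.15 and at -0.88 with median centring, and Klra7, an NK receptor gene of the Ly49 family whose copies are hard to separate, was lower at -0.68 ± 0.13.

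Of the strain-linked genes seen in one channel, H2-Ea, H60 and Gbp2b were bright in athymic blood on 3 arrays and in the reference on none, and Apobec3 the reverse. H2-Ea, the alpha chain of the class II molecule I-E, had ratios of 1.19, 1.31 and 0.45. Net Cy5 for H2-Ea was 45.7, 48.7 and 13.3 against 7.05, 7.48 and 15.2 in Cy3, so that on the array of mouse 834 Cy5 was not the brighter channel before normalisation. Its level was at least 1.83-fold higher in athymic blood (probe at chr17:33952105-33952164, mm8). H60, a ligand of the NK receptor NKG2D, was at 0.99, 1.32 and 0.77, a mean measured ratio of 2.03-fold. Gbp2b, a guanylate-binding protein gene, was at 0.60, 0.53 and 0.43, with a limit of 1.43-fold over the mean of the 3 arrays. Apobec3, a cytidine deaminase that restricts retroviruses, was at -1.57, -1.33 and -0.92, with net Cy5 of 5.38, 6.40 and 4.41 against 213, 198 and 202 in Cy3. It was 2.42-fold higher in the reference by the mean measured ratio. A second Apobec3 probe, also bright in the reference only, was at -0.07. Klra10 and Prkdc were bright in the reference only as well, with limits of 1.05-fold and 1.01-fold.

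The same probes on the other 6 arrays, which share the mice, the reference and the dyes, are given side by side without a test. In day 10 blood H2-Ea lay between 0.03 and 0.31 and was bright in Cy5 on 0 of 3 arrays. The TIC fraction gave 1.10 to 3.28 for it and was bright on 3 of 3. H60, Gbp2b and Ifi202b were above 0 on all 9 arrays, and Apobec3 and Klra7 below 0 on all 9. Apobec3 ranged from -0.92 to -1.57 in day 0 blood, from -0.54 to -0.73 in day 10 blood and from -1.69 to -2.85 in the TIC fraction. Ly6a was below 0 in all 6 bloods, and above 0 in the TIC fraction of mice 832 and 834.

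**Figure D5:**
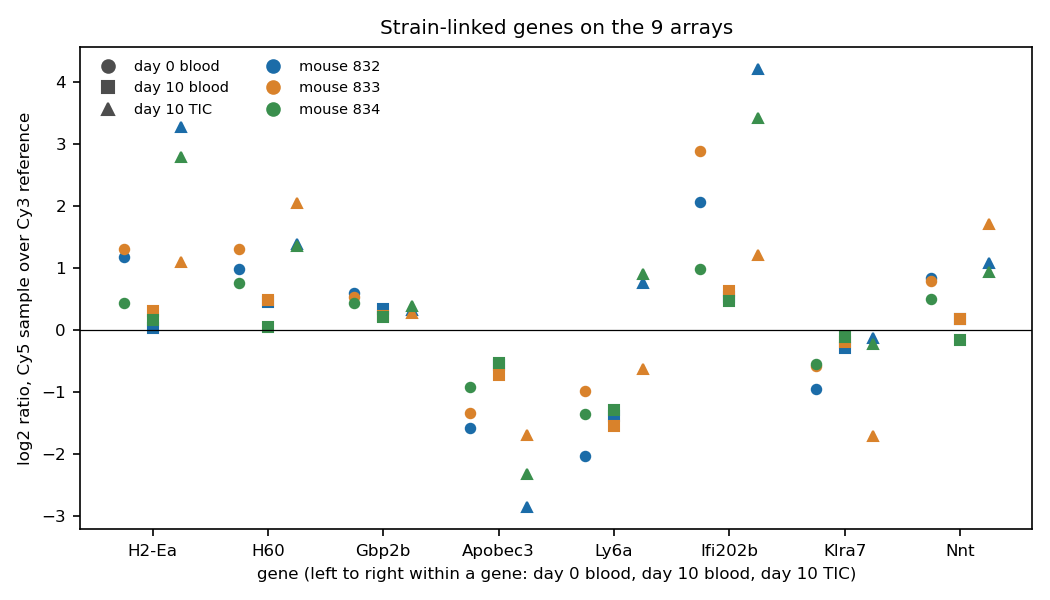
Log2 ratios of sample over reference (y axis) for 8 strain-linked genes (x axis) on the 9 arrays, with the shape showing the group and the colour the mouse. Apobec3 is below 0 and H2-Ea, H60, Gbp2b and Ifi202b are above 0 in every sample, while Ly6a is above 0 in 2 of the 3 TIC samples only.

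Probes of the same MHC gene disagreed. Of 9 class II genes tested 3 rose and none fell (median 0.11), against 13.4% higher and 12.5% lower of all genes. The genes that rose each had another bright probe below 0. H2-Aa, the alpha chain of I-A, was at 0.60, 1.04 and 1.41 on the probe used (mean 1.02 ± 0.17, adjusted p = 0.00931, chr17:33892022-33892081, mm8) and at -1.88, -1.51 and -1.49 on a probe at chr17:33892680-33892739. H2-Ab1, its beta chain, was at 0.97 ± 0.19 and on its other probes at 0.89, -0.47 and -0.96, and H2-DMb1 at 0.77 ± 0.17 and -0.31. H2-Aa, H2-Ab1 and H2-DMb1, called higher by loess, were at -0.43, -0.95 and -0.61 with median centring. H2-Eb1, the beta chain of I-E, was at -0.31 ± 0.13, the invariant chain gene Cd74 at 0.10 ± 0.23 and the transactivator gene Ciita at 0.17 ± 0.17, and none of them passed, nor did H2-DMa, H2-DMb2 and H2-Oa. The part of allele differences under the probes was not tested. Of 15 class I genes tested 5 rose and 1 fell, against 13.4% higher and 12.5% lower of all genes. H2-T24 was at 1.14 ± 0.15, H2-T23 at 1.14 ± 0.14, H2-Q2 at 0.88 ± 0.18 and B2m, the light chain, at 0.74 ± 0.11, the last 3 at -0.72, -0.97 and -1.66 with median centring.

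The promoters of H2-Aa and H2-Eb1, which lie in the same MHC region as H2-Ea, are printed because class II genes share the Y box CTGATTGG, bound by the factor NF-Y. They come from RefSeq's GRCm38.p6 windows at chr17:34287774-34288073 (minus strand) for H2-Aa and chr17:34305617-34305916 (plus strand) for H2-Eb1, with the Y box in capitals.
H2-Aa: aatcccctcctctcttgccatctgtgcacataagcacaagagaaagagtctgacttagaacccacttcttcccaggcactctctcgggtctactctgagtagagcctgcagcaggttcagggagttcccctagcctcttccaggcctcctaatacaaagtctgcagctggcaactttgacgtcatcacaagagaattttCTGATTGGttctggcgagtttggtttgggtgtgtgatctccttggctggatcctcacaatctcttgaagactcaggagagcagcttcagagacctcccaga
H2-Eb1: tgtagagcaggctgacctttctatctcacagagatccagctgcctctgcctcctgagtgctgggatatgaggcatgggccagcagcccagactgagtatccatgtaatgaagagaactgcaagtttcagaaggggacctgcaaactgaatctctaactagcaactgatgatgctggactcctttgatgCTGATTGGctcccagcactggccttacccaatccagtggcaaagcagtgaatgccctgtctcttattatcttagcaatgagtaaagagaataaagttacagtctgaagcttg
On either strand CTGATTGG was in 4.10% of all windows, in those of 4.70% of all genes and in those of 4 of 8 class II genes, namely H2-Aa, H2-Eb1, H2-Oa and H2-Eb2. H2-Aa was called higher, and H2-Eb1 and H2-Oa were not called.

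Interferon-stimulated genes went both ways, with 6 higher and 5 lower of 23 tested and a median of 0.28, against 26.0% called of all genes. Isg15, a ubiquitin-like modifier, was at -3.44, -3.31 and -3.05, a mean of -3.27 ± 0.12 (adjusted p = 0.000321). The files place this probe on chromosome 17, whereas RefSeq places Isg15 on chromosome 4, so its identity is uncertain. Oasl2, an oligoadenylate synthetase-like gene, was at -2.83, -2.17 and -1.81, and Irf7, the regulator of type I interferon genes, at -1.58, -1.74 and -1.62. Oasl1, a neighbour of Oasl2 in family and position, was higher at 1.09, 1.25 and 0.88. The interferon-stimulated response element, searched on both strands, was in the windows of 3.99% of all genes and of 17 of 25 genes of the list with a window, with 3 of 5 lower genes (Isg15, Oas3 and Rsad2), 2 of 3 higher ones (Trim30a and Stat2) and 9 of 11 that were not called. Of 13 platelet genes 2 were higher and 2 lower, near the 26.0% called of all genes, so the count is no result about platelets. Nrgn, the neurogranin gene, was at 1.33 ± 0.15 and Clec1b, the receptor CLEC-2, at 0.76 ± 0.19 (at -0.63 and -1.15 with median centring), and Gp1bb and Gp6, platelet receptor genes, at -0.87 ± 0.14 and -0.40 ± 0.10.

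Genes used in every cell moved in both directions too. Of 76 genes of cytosolic ribosomal proteins 17 rose and 12 fell (median 0.10), against 13.4% higher and 12.5% lower of all genes. Fau, Rplp0 and Rplp1 were at 1.35, 1.02 and 1.41, against -1.39, -2.06 and -1.57 with median centring, and Rpl28 was at -1.14. Of 14 widely expressed genes 3 rose and 4 fell, against the same shares of all genes. Actb (0.79 ± 0.13) and Ywhaz (0.81 ± 0.12) were at -0.98 and -0.44 with median centring, and the files place the Actb probe on chromosome X, whereas RefSeq places Actb on chromosome 5. Cyc1, which encodes cytochrome c1, was at -0.76 ± 0.13.

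Among genes bright in one channel on all 3 arrays and in the other on none, 1762 were seen in the reference and 24 in athymic blood, with Cy5 the dimmer channel on each array; the part of that dimness in the gap was not tested. The largest limits in the reference were those of Spp1, the osteopontin gene (at least 3.61-fold), Esco2, a cohesin acetyltransferase gene (3.12-fold), Apobec3, Tln2 (2.34-fold), Col1a1 (2.29-fold), Cacna1b (2.17-fold) and Sparc, a matrix protein gene (2.12-fold), beside Dapl1, Il7r and Tcf7. In athymic blood they were Crct1, a gene of the epidermal differentiation region (3.65-fold), Tmem178 (2.59-fold), Camp, Ngp, H60, Syn2 (1.97-fold), Pira2 (1.84-fold), H2-Ea, Ncr1 and Mgam (1.56-fold). For Camp, Ngp, H60, Pira2 and Mgam, and for all the reference genes named here, the limit equals the mean measured ratio over 3 arrays. In mouse 834 net Cy5 of Pira2 was 12.5 against 20.8 in Cy3, and that of Mgam 9.15 against 28.4. Crct1 had net Cy5 of 124, 185 and 42.8 in mice 832, 833 and 834 against 17.3, 19.1 and 20.2 in Cy3, lowest in mouse 834 like Asprv1.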

How the data were processed

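Per the labels' protocols, blood RNA was amplified and labelled for 2-colour Agilent mouse arrays. Per the file headers, the deposited files are tables of Agilent Feature Extraction 10.5.1.1 with probe positions on build mm8. The version in the submitters' processing notes is 9.1.3.1. Per the file headers, the authors deposited the mean spot intensity and the local background intensity of each channel, a processed signal intensity that the scanner software had background-subtracted and dye-normalised, and a log10 ratio of processed Cy5 over Cy3. The deposited value table held these same log10 ratios (largest difference 0). Members and gene lists were chosen with earlier results of these data known.

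Here spots marked with non-uniform background were set aside, 3 to 15 on the day 0 arrays. Background was corrected by normexp (offset 50), ratios were normalised by loess and outlier spots left out. Of 41174 probes, 9275 were well above background in both channels on all 3 arrays, and the brightest probe of each gene was kept, giving 7660 genes. The filter leaves out genes dark in one channel, which got a lower limit from single-channel values (loess and Aquantile, open to dye bias). Log2 ratios were computed from the deposited intensities, and their means were tested against 0 with limma 3.58.1 in R 4.3.3 (2 residual and 3.98 prior degrees of freedom), with Benjamini-Hochberg adjustment and a threshold of 0.05. Only 3 arrays limit the precision. On simulated ratios with the spread of these 7660 genes, 3 of 50 genes shifted by 0.5, 32 of 50 shifted by 1 and 45 of 50 shifted by 2 were recovered, with 3 false calls. The simulated noise was independent between arrays and centred on 0, without dye bias or a shared reference. The false calls therefore do not measure errors from those sources.

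The text names the 15 largest rises and falls with a gene symbol and 1 direction on all arrays, members of the T cell, NK, MHC class II and strain-linked lists, up to 4 members of smallest p of other lists, and the 10 genes with the largest limit in each direction. Markers of skin, fibroblasts, liver and thymus, further members of the B cell, erythroid, MHC and interferon lists and second probes were added after their values were seen. Some genes that the rule names are not reported here. Probes were named through RefSeq (GRCm38.p6, names only) by accession for 23374 probes and by symbol for 6733. Trac, Trbc1, H60a, Ahsp and Hbb-b1 were looked up as Tcra, Tcrb-J, H60, Eraf and Hbb-bt, a choice made after the files were seen.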

Additional observations from a re-analysis of the deposited data

How the results depend on the processing

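With 3 mice per comparison and a faint Cy5 channel, dim genes and small shifts are beyond these arrays, and the cause of each change below was not tested. The 1029 higher and 961 lower genes became 1928 and 1401 with Agilent processed signals and with the deposited log ratio. They became 1732 and 1493 with 6 blood arrays in the fit, 583 and 607 with non-uniform background spots kept, and 1685 and 1273 with an intensity trend. Median centring in place of loess gave 72 higher and 4604 lower. The 11 lower T cell genes became 20 with median centring, 25 when either channel had to be bright and 22 with no brightness filter, where more genes were tested. The T cell median of -0.29 moved to -0.54 with processed signals or the deposited ratio and to -0.91 with median centring, the B cell median of 0.48 to 0.80 and -0.51, and the NK median of 0.34 to 1.17 and -0.038. Genes bright in athymic blood only rose from 24 to 84 when 2 of 3 arrays sufficed. Leaving out each mouse in turn gave 505 to 868 higher genes, 541 to 812 lower, 6 to 10 lower T cell genes, 4 to 8 strain-linked calls, and medians of -0.36 to -0.27 (T cell), 0.42 to 0.55 (B cell) and 0.25 to 0.46 (NK). The lowest counts were without mouse 832.

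Of 116 named genes tested, 35 had the opposite sign with median centring, and 29 of these passed the test under one or both normalisations: Ighm -0.33, Fau -1.39, Rplp0 -2.06, Rplp1 -1.57, H2-T23 -0.72, B2m -1.66, H2-Q2 -0.97, Lyz2 -0.39, Fcgr3 -0.037, Nrgn -0.63, Clec1b -1.15, Ywhaz -0.44, Actb -0.98, H2-Aa -0.43, H2-Ab1 -0.95, H2-DMb1 -0.61, Ciita -0.83, H2-DMb2 -0.41, Cd74 -1.75, Ccl5 -0.011, Klrd1 -0.16, Nkg7 -0.81, Il2rb -0.39, Klre1 -0.46, Klf2 -2.10, S1pr1 -0.66, Hbb-bt -2.13, Ly6c1 -0.88 and Cd226 -0.065. Opposite sign is counted here against 0. Of the 87 named genes called with loess, 21 had the opposite sign against 0 and 13 against the all-gene median of -0.58. H2-Aa was at -0.30 as the mean of its probes.

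The mouse numbers pair samples of the same animal. With all 9 arrays and the mouse number as a random replicate block, 861 genes were higher and 915 lower, with 10 T cell genes lower and 6 strain-linked genes called. The 3 medians by that block were -0.31, 0.49 and 0.34. The correlation within that block was 0.038. Deviations of the same mouse in day 0 and day 10 blood correlated at 0.21 to 0.41 across genes. Those of day 0 blood and the TIC fraction correlated at -0.035 to -0.0013, and those of day 10 blood and the TIC fraction at -0.069 to 0.079. Scan group as a random block was not run, because it could not be fitted to 3 arrays.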
